A study of Rattus norvegicus with 35 samples.

Results

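Among the bacterial sequence features read in rat colon and faeces, 3 abundant features were several-fold richer in colon: f44404ea806c18f6b05b7cbb4f3e5fd2, e335f74033bc634af43ee6baa84fa247 and df0e3d38eec730326754d8c17a8b8efe, called f44404, e335f7 and df0e3d here. They are 3 of the 1073 features in the deposited table, listed by code among the 10 with the highest mean share of reads over all libraries and with a higher mean share in colon than in faeces. The members were thus chosen by measured shares, the mean over all libraries and the colon and faeces means, so the colon and faeces values are given as a description, with no test. A further feature among the 10 also had a higher colon mean, 5.94% against 3.86% in faeces, but was not on the list and is not counted with them. By mean share over all libraries the 3 ranked 5, 6 and 9, at 4.09%, 3.63% and 2.78% of reads. The feature just inside the top 10 stood at 1.86% and the one just outside at 1.75%.

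Rats exposed to footshock, an animal model of post-traumatic stress disorder (PTSD), were set against control rats. The V3-V4 stretch of the 16S rRNA gene was amplified from bacterial DNA and read from control colon (n = 10, numbers 1 to 10 in the labels), shocked colon (n = 8, numbers 11 to 18), control faeces (n = 9, numbers 1 to 8 and 10) and shocked faeces (n = 8, numbers 11 to 18). The labels give no strain, sex, age or shock protocol. They also do not say that a number marks an animal. The p-values here thus take the library as the unit, and the spread between libraries may in part be technical.

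The 16S rRNA gene encodes the RNA of the small ribosomal subunit and is carried by all bacteria. Its conserved stretches allow amplification from a mixed community, and its variable stretches tell kinds of bacteria apart. A genome can hold several copies of the gene, which need not be identical, so read shares count amplified gene copies rather than cells. A share is also relative: a higher share of a feature and a lower amount of the other bacteria cannot be told apart. The files do not pair the codes with a taxon or a sequence, so no genus or sequence is given for the 3 features.

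Depth was lower in colon, where the 18 libraries ran from 448 to 16155 reads with a median of 3097. The 17 faecal libraries ran from 4703 to 24251 with a median of 10178. Within colon, shocked libraries were shallower, with a median of 1824.5 reads against 4093 in controls. Colon control 8 and colon shocked 12 and 17 held fewer than 1000 reads. The 2 libraries numbered 1 stood apart from their groups in composition. Colon control 1 was closer to the faecal than to the other colon libraries (mean Bray-Curtis distance, from 0 for the same composition to 1 for none in common, 0.511 against 0.681). Its distance to its own group was 0.678, where the other control colon had 0.490 to 0.644. Colon shocked 18 was also closer to the faecal libraries, but by less (0.602 against 0.612). Faeces control 1 was unlike all others (0.961 to its own group, where the other control faeces had 0.522 to 0.578). Results that changed sign or call without the 2 libraries numbered 1 are also given without them.

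In colon the 3 features together took a large part of the community. Their summed share ran from 1.16% to 38.3% of reads in control colon (median 16.9%, n = 10) and from 9.44% to 31.2% in shocked colon (median 16.8%, n = 8). In faeces it ran from 0.460% to 5.29% in controls (median 2.03%, n = 9) and from 1.01% to 4.77% after footshock (median 2.57%, n = 8). One of the 3 was the most abundant feature of the library in 9 of 18 colon libraries and in 0 of 17 faecal libraries. All 3 were among the 10 most abundant in 8 colon libraries, and none of them was in 13 faecal libraries.

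**Figure D1:**
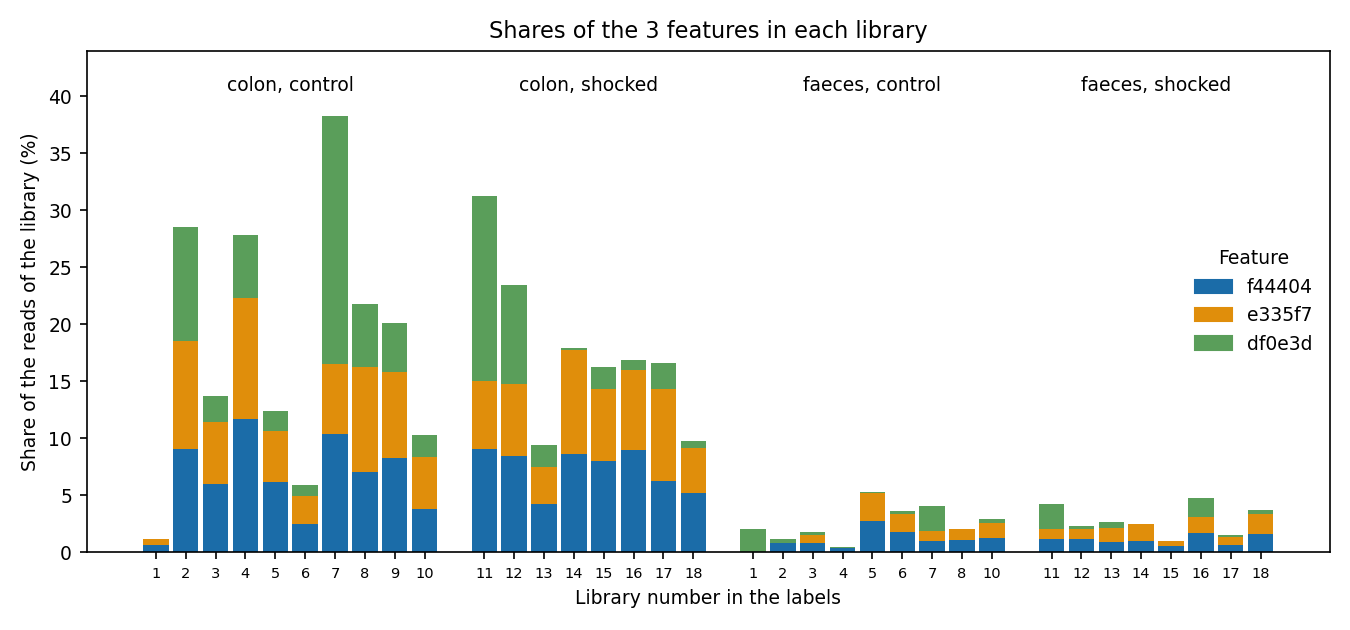
Each bar is 1 library, numbered as in the labels, and its coloured parts are the shares of f44404, e335f7 and df0e3d in percent of the reads of that library, stacked. Colon bars reach 38.3% and faecal bars 5.29%. The blue and orange parts (f44404 and e335f7) are of similar height in most libraries, while the green part (df0e3d) is tall in a few colon libraries and thin in others.

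Feature f44404 had the highest mean share of the 3 in colon and was read in all 18 colon libraries. Its share was 0.662% to 11.7% in control colon (median 6.59%; mean 6.55% ± 3.49 SD, n = 10) and 4.28% to 9.04% in shocked colon (median 8.24%; mean 7.35% ± 1.87 SD, n = 8). The lowest value belonged to colon control 1; without it control colon began at 2.45%. In faeces the share was 0% to 2.74% in controls (median 1.02%; mean 1.11% ± 0.794 SD, n = 9) and 0.573% to 1.66% after footshock (median 1.08%; mean 1.11% ± 0.398 SD, n = 8). The single faecal library without a read of it was faeces control 1 (0 of 6586 reads, where 3 reads would be 0.0456%). It ranked among the 3 most abundant features in 13 of 18 colon libraries, and in the 16 faecal libraries that held it its rank ran from 7 to 42.

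Feature e335f7 lay close to f44404 in colon and was likewise read in all 18 libraries. Its share was 0.501% to 10.6% in control colon (median 5.81%; mean 6.06% ± 3.21 SD, n = 10) and 3.22% to 9.10% in shocked colon (median 6.27%; mean 6.24% ± 1.94 SD, n = 8). In faeces it was 0% to 2.44% in controls (median 0.826%; mean 0.859% ± 0.820 SD, n = 9) and 0.437% to 1.70% after footshock (median 1.04%; mean 1.09% ± 0.446 SD, n = 8). It had no reads in 3 control faeces libraries, numbers 1, 2 and 4, and was read in all 8 shocked ones. Colon control 2 and 4, of the same numbers as the latter 2, held 9.40% and 10.6%, the 2 highest shares of it in colon.

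Feature df0e3d varied far more between libraries. Its share was 0% to 21.7% in control colon (median 3.30%; mean 5.39% ± 6.44 SD, n = 10) and 0.191% to 16.2% in shocked colon (median 1.95%; mean 4.10% ± 5.58 SD, n = 8). Over the 18 colon libraries its SD was 123.2% of its mean, against 41.1% for f44404 and 43.2% for e335f7. It was the most abundant feature of 4 colon libraries: controls 2 and 7, at 9.99% and 21.7%, and shocked 11 and 12, at 16.2% and 8.71%. At the other end stood colon shocked 14, at 0.191% (95% exact binomial interval up to 0.302%, counting error only), and colon control 1, with 0 of 16155 reads.

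In faeces df0e3d was low in most libraries and near 2% in a few. Its share was 0% to 2.19% in controls (median 0.267%; mean 0.622% ± 0.853 SD, n = 9) and 0% to 2.21% after footshock (median 0.298%; mean 0.641% ± 0.824 SD, n = 8). Faeces control 1 and 7 and faeces shocked 11 and 16 held 1.63% to 2.21%, and the next highest library held 0.516%. It had no reads in faeces control 8 and faeces shocked 14 and 15. In faeces control 1, where f44404 and e335f7 were both at 0, it reached 2.02%.

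The first comparison placed colon beside faeces. Mean shares were 6.23-fold higher in colon for f44404 (6.91% ± 2.84 SD, n = 18, against 1.11% ± 0.620 SD, n = 17). The fold was 6.36 for e335f7 (6.14% ± 2.65 against 0.966% ± 0.661) and 7.64 for df0e3d (4.82% ± 5.94 against 0.631% ± 0.813). Medians gave the last a similar contrast at lower levels, 2.12% in colon and 0.267% in faeces. The other 7 of the 10 most abundant features had colon means 0.233 to 1.54 times their faecal means. A contrast as strong was not limited to the 3, since the features ranked 11 and 12 by mean share also showed it. The one ranked 11 took 3.41% of colon reads on average and had no reads in any of the 17 faecal libraries. The one ranked 12 took 2.84% and 0.480%, or 5.92-fold more in colon, and was higher in colon in 15 of 17 pairs.

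The ranges of colon and faeces overlapped for all 3 features, and for f44404 and e335f7 the overlap rested largely on colon control 1. None of the 127 features read in 25% or more of all libraries (0.0%) was without overlap. For e335f7, 17 of 18 colon libraries lay above every faecal library, for f44404 16 of 18 and for df0e3d 9 of 18. Without the libraries numbered 1, e335f7 did not overlap, with colon from 2.52% and faeces up to 2.44%. It was then the only one of the 127 features (0.787%) whose colon shares all lay above its faecal shares; the rule had already picked it for that contrast. In f44404, colon control 6 at 2.45% stayed below faeces control 5 at 2.74%.

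Libraries with the same number allowed 17 pairs of colon and faeces. Colon was higher in 17 of 17 pairs for f44404, 17 of 17 for e335f7 and 15 of 17 for df0e3d. Of the same 127 features, 5 (3.94%) were higher in colon in at least 15 pairs, and the median feature was higher in colon in 4 pairs. A pair in which neither library held reads of a feature counted as not higher, and colon was read less deeply. The other 7 of the top 10 were higher in colon in 1 to 12 pairs. As the rule used this contrast, these counts describe the choice.

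The size of the gap differed widely from pair to pair. On the log2 scale with 0.5 read added, colon over faeces for f44404 had a median of 2.86 over the 17 pairs (7.24-fold), from 0.43 in pair 6 to 6.45 in pair 1, where faeces held no reads. In pair 6, f44404 took 2.45% of colon and 1.82% of faecal reads, while in pair 4 it took 11.7% and 0.412%. The median for e335f7 was 2.84 (7.14-fold), from 0.73 in pair 6 upwards, with the pairs 1, 2 and 4 at 0 reads in faeces. Pairs 5 and 6 had the smallest gaps for both features among controls, and pairs 13 and 18 the smallest among shocked rats.

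For df0e3d the median over pairs was 3.30 (9.88-fold), and 2 pairs ran the other way. In pair 1 it had 0% of colon and 2.02% of faecal reads, and in pair 16 it had 0.903% and 1.63%. Pairs 7 and 11 held the highest shares in both sample types, 21.7% and 2.19% in pair 7 and 16.2% and 2.21% in pair 11. Pairs 2 and 12, also high in colon at 9.99% and 8.71%, held 0.298% and 0.205% in faeces.

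**Figure D2:**
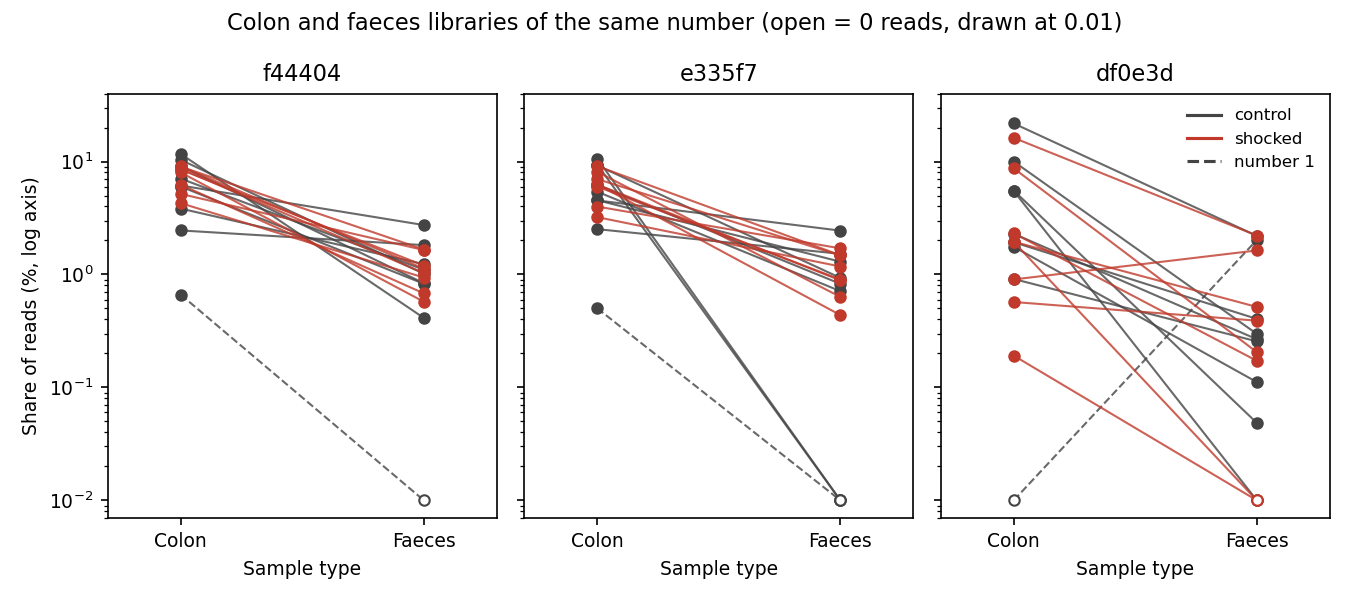
Each line joins the colon and the faeces library of the same number for 1 feature, with share of reads in percent on a log axis, controls in grey, shocked rats in red and number 1 dashed. Open points are libraries with 0 reads, drawn at 0.01%. Lines for f44404 and e335f7 all run downwards from colon to faeces, and those of df0e3d run upwards in pairs 1 and 16.

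Whether a library number with a high share in colon also had a high share in faeces was tested by correlation. In this and the next sets, 15 relations were computed and p-values come from permutation tests, adjusted by Benjamini-Hochberg over the 15. Over the 17 pairs, Pearson's r of log2 shares was 0.68 for f44404 (p = 0.0568, adjusted p = 0.142) with Spearman's rho -0.16 (p = 0.539, adjusted p = 0.899). Without the 2 pairs farthest from the median colon share, r was -0.33 (permutation p = 0.225). The positive r rested on pair 1: without it r was -0.44 (n = 16, permutation p = 0.0902, adjusted p = 0.27).

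For e335f7, r was 0.15 (n = 17, permutation p = 0.527, adjusted p = 0.651) and rho -0.39 (p = 0.126, adjusted p = 0.379), and without the 2 farthest pairs r was -0.59 (permutation p = 0.0179). Without pair 1, r was -0.56 (n = 16, permutation p = 0.021, adjusted p = 0.105) and rho -0.62 (p = 0.0126, adjusted p = 0.0632), which did not pass after adjustment. For df0e3d, r was -0.05 (permutation p = 0.833, adjusted p = 0.861), rho 0.10 (p = 0.694, adjusted p = 0.946), r 0.20 without the 2 farthest pairs (p = 0.483) and 0.31 without pair 1 (n = 16, p = 0.236). Within the 9 control or 8 shocked pairs, the lowest exact permutation p of the 3 features was 0.106. Over the 8 control pairs without pair 1, e335f7 had r -0.71 and rho -0.87 (exact permutation p = 0.0473 and 0.00794, unadjusted), so higher colon shares went with lower faecal shares there. Pairs 2 and 4 among them had the highest colon shares and no faecal reads, so the 0.5 read added set their faecal values in r. The relation without these 2 pairs was not computed. Over the 8 shocked pairs r was -0.25 (exact permutation p = 0.554). A positive relation between colon and faeces that held without pair 1 was not detected for any of the 3.

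The ratio of the features to each other within a library is formed without the library total, though features can still vary differently with depth. Reads of f44404 and e335f7 came in a nearly fixed ratio: in the 32 libraries that held both, f44404 over e335f7 ran from 0.695 to 1.66 with a median of 1.15. In colon the median was 1.19 and the SD of the log2 ratio 0.33 (n = 18), where counting alone would give a median of 0.18 per library. In the 14 faecal libraries with both, the median was 1.15 and the SD 0.27, where counting would give 0.19. The ratio was thus close in colon and faeces, although both features were several-fold apart between them.

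Only 2 libraries broke that ratio. Faeces control 2 held 59 reads of f44404 and 0 of e335f7, and faeces control 4 held 51 and 0. Against a floor of 3 reads the ratio was at least 19.7 and at least 17 there. In faeces control 1 both were at 0. The smallest count above 0 anywhere in the table is 2, so whether a feature listed at 0 could have been read once is not known.

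Feature df0e3d kept no such ratio. In the 30 libraries with both, f44404 over df0e3d ran from 0.463 in faeces control 7 to 45.1 in colon shocked 14 (median 2.69), with a log2 SD of 1.59, where counting would give 0.27. Over e335f7, df0e3d ran as widely, with e335f7 over df0e3d from 0.286 in colon control 7 to 47.6 in colon shocked 14 (median 2.46, 28 libraries). Colon shocked 14 was also the deepest shocked colon library, at 9418 reads. Whether these ratios vary with depth was not tested. Numbers 7 and 11 were the libraries in which df0e3d exceeded f44404 in colon and in faeces alike.

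Shares of f44404 and e335f7 rose and fell together across libraries. In colon, r of log2 shares was 0.95 (n = 18, permutation p = 1e-05, the lowest value these permutations allow, adjusted p = 0.00015) and rho 0.76 (p = 0.0003, adjusted p = 0.00225). Without the 2 libraries farthest from the median r was 0.75 (permutation p = 0.0009), and without number 1 it was 0.84 (n = 17, p = 5e-05, adjusted p = 0.00075). Within control colon r was 0.97 (n = 10, permutation p = 0.00021) and within shocked colon 0.77 (n = 8, exact permutation p = 0.0294), where rho was 0.43 (exact p = 0.299). In faeces r was 0.67 (n = 17, permutation p = 0.00276, adjusted p = 0.0138) and rho 0.89 (p = 1e-05, adjusted p = 0.00015). Within control faeces r was 0.65 (n = 9, exact permutation p = 0.0154) and within shocked faeces 0.86 (n = 8, exact p = 0.00677). Without the 2 farthest faecal libraries r was 0.67 (permutation p = 0.00871), and without number 1 it was 0.67 (n = 16, permutation p = 0.00362, adjusted p = 0.0271) with rho 0.87 (p = 6e-05, adjusted p = 0.0009). Leaving out the 2 farthest of those 16 gave r 0.44 (permutation p = 0.141) and rho 0.82 (p = 0.00062). Shares of a library sum to its whole, so such relations are not independent of the other features.

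The relation of df0e3d to the other 2 was weaker, and its r, more than its rho, rested on few libraries. With f44404 in colon, r was 0.81 (n = 18, permutation p = 0.00193, adjusted p = 0.0138) and rho 0.64 (p = 0.00553, adjusted p = 0.0276). Without the 2 farthest libraries r was 0.40 (permutation p = 0.123) and rho 0.56 (p = 0.0268). It fell to 0.45 without number 1 (n = 17, p = 0.0738, adjusted p = 0.27), where rho was 0.57 (p = 0.0196, adjusted p = 0.0735). With e335f7, r was 0.76 (permutation p = 0.00744, adjusted p = 0.0279) and rho 0.46 (p = 0.0562, adjusted p = 0.211), with r 0.19 without the 2 farthest (p = 0.47) and 0.29 without number 1 (p = 0.264).

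Control and shocked colon gave different values for df0e3d. In control colon without number 1, r was 0.84 with f44404 and 0.72 with e335f7 (n = 9, exact permutation p = 0.00431 and 0.0269, unadjusted), and rho was 0.88 and 0.82 (exact p = 0.00308 and 0.0108). In shocked colon r was 0.19 and -0.12 (n = 8, exact permutation p = 0.653 and 0.773). The difference between the treatments was not tested. In faeces, r with f44404 was -0.16 and rho 0.10 (n = 17, permutation p = 0.496 and 0.693, adjusted p = 0.651 and 0.946), with r 0.43 without the 2 farthest libraries (p = 0.109). Without number 1 the sign of r turned, to 0.34 with rho 0.27 (n = 16, permutation p = 0.204 and 0.302, adjusted p = 0.476 and 0.637). With e335f7, r was -0.05 and rho -0.02 (permutation p = 0.861 and 0.944, adjusted p = 0.861 and 0.95), with r -0.19 without the 2 farthest (p = 0.454) and 0.11 without number 1 (n = 16, p = 0.705).

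**Figure D3:**
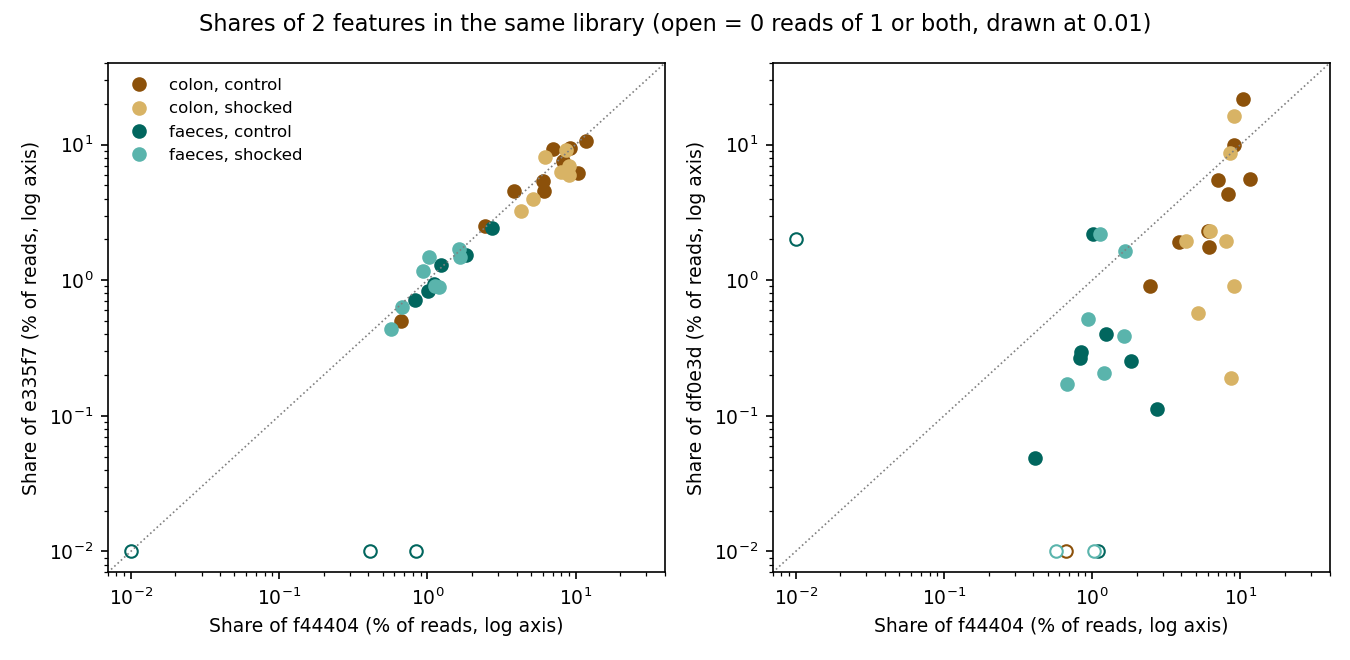
Each point is 1 library, coloured by group, with the share of f44404 on the horizontal axis and that of e335f7 (left) or df0e3d (right) on the vertical axis, in percent of reads on log axes; the dotted line marks equal shares. Open points are libraries with 0 reads of either feature, drawn at 0.01%. On the left the 32 filled points hug the line from faeces to colon, and on the right they spread over a ratio of 0.463 to 45.1.

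Each feature was also matched to the features most like it in rank order over libraries, among features with reads in 50% or more of the libraries compared. In colon, over 39 other features, f44404 and e335f7 were each other's closest match (rho 0.76, n = 18), and f44404 was the closest to df0e3d (rho 0.64). In faeces, over 65 other features, f44404 and e335f7 were again each other's closest (rho 0.89, n = 17). The closest to df0e3d there was 721bbde09abf2f51fc7d8caeab5b22f1 (rho 0.54), a feature at 0.213% of faecal and 1.56% of colon reads. That feature was also second closest to df0e3d in colon (rho 0.59). The median rho over all other features was -0.12 to -0.07 for the 3 in colon. In faeces it was 0.15 for f44404, 0.21 for e335f7 and -0.09 for df0e3d.

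Relations of the shares to library reads were computed because depth differed between libraries. In colon r with log2 reads was -0.37 for f44404, -0.40 for e335f7 and -0.48 for df0e3d (n = 18, permutation p = 0.14, 0.105 and 0.0394, adjusted p = 0.263, 0.224 and 0.118), and rho was -0.05, -0.16 and -0.33 (p = 0.844, 0.518 and 0.182). Without the 2 libraries farthest from the median depth r was 0.01, -0.11 and -0.19, and without number 1, the deepest colon library, it was -0.06, -0.11 and -0.28. Within shocked colon, df0e3d was higher in shallower libraries (r -0.85, rho -0.88, n = 8, exact permutation p = 0.00898 and 0.00724, unadjusted), while within control colon r was -0.42 (n = 10, permutation p = 0.23). The sign in control colon turned without number 1, to r 0.09 and rho 0.28 (n = 9, exact permutation p = 0.832 and 0.463). In faeces r was 0.20, 0.15 and -0.27 (permutation p = 0.445, 0.564 and 0.298; adjusted p = 0.651, 0.651 and 0.497), rho -0.02, -0.03 and -0.31, and r without the 2 farthest 0.22, 0.11 and -0.19. Without number 1, r was -0.13, 0.03 and -0.21.

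The second comparison asked whether footshock altered the 3 features in colon. None of the 3 passed the test (edgeR quasi-likelihood test over 95 features, Benjamini-Hochberg adjusted p under 0.05), where 8 of the 95 (8.42%) did, 1 higher (1.05%) and 7 lower (7.37%). None had an unadjusted p under 0.05 either, where 9 of 95 features (9.47%) did, and DESeq2 and limma on centred log-ratios called none of the 3. The ranges of control and shocked colon overlapped for each feature. Shocked colon was also read less deeply than control colon, and the part of depth in this comparison was not tested.

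Fitted values in colon depended on the scaling. With TMM factors the log2 fold change, shocked over control, was -0.38 ± 0.53 for f44404 (SE from the F statistic; 95% interval -1.45 to 0.69; edgeR adjusted p = 0.856). It was -0.45 ± 0.55 for e335f7 (-1.55 to 0.65; edgeR adjusted p = 0.826). These lie near the median of all 95 features in that fit, -0.40. With library totals alone the median was 0.02 and the 2 features stood at 0.17 and 0.04, and limma gave 0.45 and 0.32 with a median of 0.00, so no direction can be given for them.

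For df0e3d in colon the TMM fit gave -1.35 ± 0.80 (95% interval -2.97 to 0.27; edgeR adjusted p = 0.676), while library totals alone gave -0.40 and limma -0.05. Without colon control 1 it was -1.50, with an unadjusted edgeR p of 0.0283 that did not pass adjustment over 89 features (edgeR adjusted p = 0.28). Other single libraries moved it further: the value was -0.11 without colon control 7 (edgeR adjusted p = 0.998) and -2.14 without colon shocked 11 (edgeR adjusted p = 0.0876). Mean shares show the same dependence, since control colon averaged 3.58% without number 7 and shocked colon 2.37% without number 11.

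The third comparison asked the same of faeces. None of the 3 features passed the test, where 2 of 135 features (1.48%) did; none had an unadjusted p under 0.05 in edgeR, where 6 of 135 (4.44%) did, and DESeq2 and limma called none of them. Log2 fold changes were -0.12 ± 0.87 for f44404 (95% interval -1.90 to 1.66), 0.19 ± 1.06 for e335f7 (-1.98 to 2.36) and 0.28 ± 1.22 for df0e3d (-2.20 to 2.77), each with an edgeR adjusted p of 0.983. The median of all 135 features was 0.31. No direction can be given for any of the 3 in faeces, since the sign turned in 12 of 25 alternatives for df0e3d, in 3 for f44404 and in 1 for e335f7. With a left-out library, df0e3d ran from -0.95 (without faeces control 6) to 0.58 (without faeces control 1), f44404 from -0.40 (without faeces shocked 16) to 0.35 (without faeces control 5) and e335f7 from -0.06 to 0.78 (without the same 2). Leaving out a library also changed which features passed the filter. The fit held 160 features without faeces control 6 and 167 without faeces control 1, against 135 with all libraries. How much of these shifts came from the changed feature set was not tested. TMMwsp scaling gave -0.81 and limma -1.06 for df0e3d, and limma gave 0.13 for f44404. With intervals this wide, changes of several-fold in either direction could not be detected in faeces.

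Whether the response to footshock differed between faeces and colon was tested as an interaction over all 35 libraries. None of the 3 features passed, nor did any of the 127 tested (0.0%), where 13 (10.2%) had an unadjusted p under 0.05, none of them among the 3; DESeq2 called 3 features and limma on centred log-ratios 0. The faecal response minus the colon response was 0.38 ± 0.93 for f44404 (95% interval -1.48 to 2.25), 0.78 ± 1.11 for e335f7 (-1.43 to 2.99) and 1.46 ± 1.41 for df0e3d (-1.35 to 4.27) on the log2 scale, each with an edgeR adjusted p of 0.9998. The median over the 127 features was 0.76 in the same fit and 0.42 with library totals alone, which turned f44404 to -0.17. In all, 11 of 44 alternatives turned f44404, among them TMMwsp (-0.11), the filter at 50% of libraries (-0.13), the fit without libraries under 1000 reads (-0.09) and single left-out libraries, down to -0.27 without faeces shocked 16. Only limma turned df0e3d (-0.61), and no alternative run turned e335f7. Without both libraries numbered 1 the 3 values were 0.08, 0.40 and 2.06.

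**Figure D4:**
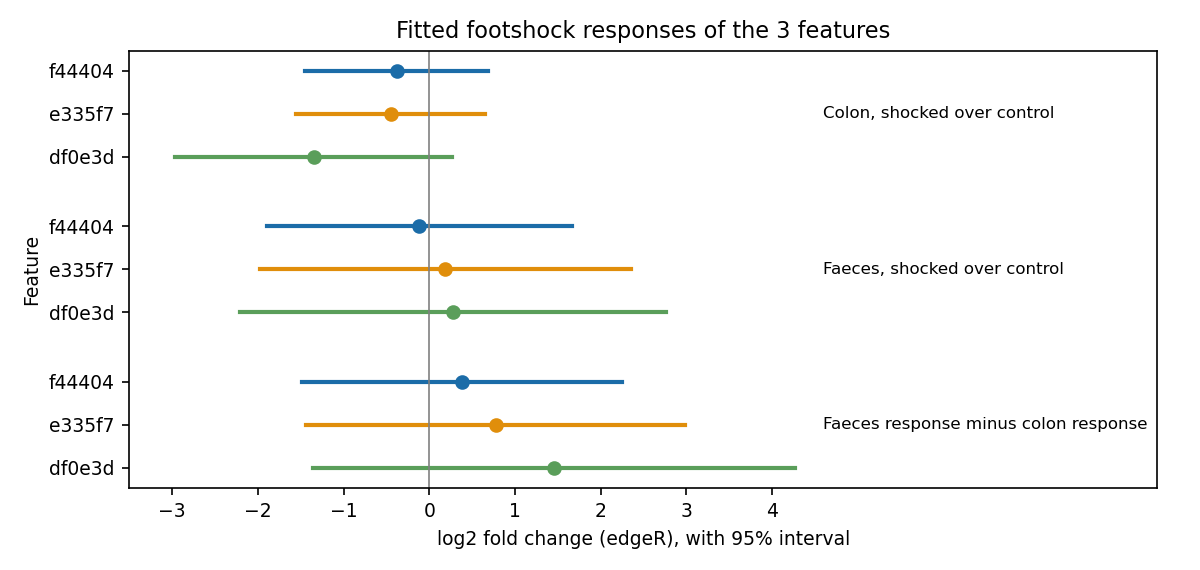
Points are log2 fold changes fitted by edgeR for the 3 features, and lines are their 95% intervals, for shocked over control in colon and in faeces and for the faecal minus the colon response. Each of the 9 intervals spans 0, from the narrowest for f44404 in colon (-1.45 to 0.69) to the widest for df0e3d in the difference of responses (-1.35 to 4.27).

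Ratios between the features were compared between shocked and control libraries on the log2 scale with 0.5 read added, in 6 comparisons. In colon, f44404 over e335f7 averaged 0.13 ± 0.33 in controls (SD, n = 10) and 0.26 ± 0.32 after footshock (SD, n = 8), or 0.13 higher in the latter (exact permutation p = 0.406, adjusted p = 0.741). The ratio of f44404 to df0e3d differed by 0.50 (exact permutation p = 0.655, adjusted p = 0.741), and that of e335f7 to df0e3d by 0.37 (exact permutation p = 0.741, adjusted p = 0.741). Without colon control 1 these were 1.20 and 1.04 (exact permutation p = 0.126 and 0.225). In faeces the differences were -1.57, 1.20 and 2.76 (exact permutation p = 0.236, 0.555 and 0.203; adjusted p = 0.708, 0.741 and 0.708). Over libraries with reads of both features they were -0.12, -0.91 and -0.76, and without faeces control 1 the latter 2 were 0.00 and 1.77, so zeros in a few libraries set their size and, for the latter 2, their sign. None of the 6 differences passed its exact permutation test, before or after adjustment.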

How the data were processed

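Per the labels' protocols, DNA came from a PowerSoil Pro extraction, and per the series' design text, primers 341F and 805R and an Illumina MiSeq were used. The values used are the deposited counts, whole and not normalized; per the file header they were converted from biom format. The submitters' processing notes name cutadapt; what made the features, and any filter on them, is not given in the sources used here. Libraries were grouped by tissue and treatment labels, and all 35 columns matched a label by name. The members and lists were chosen with earlier results of these data known. The rule for named features took the 3 listed codes, the features around the limit of the top 10, and the closest match of each member.

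Shares are counts over library totals. Tests of footshock used edgeR 4.0.16 (R 4.3.3) (TMM, features with reads in 25% or more of the fitted libraries), with DESeq2 1.42.0, limma 3.58.1, other scalings, filters and left-out libraries as alternatives. The edgeR step was run on simulated counts with the same dispersion for all features, to check that large changes were called more often than none. That check gives no error rate for the data used here. Permutation tests were two-sided, with all arrangements for differences between groups and for correlations over fewer than 10 libraries, and 100000 resamples for other correlations. Intervals and floors of 3 reads cover counting error only, since PCR reads without molecular identifiers are not independent molecules. No 2 libraries of a group looked like 1 library deposited again: over 137 such pairs, chi-square divided by its degrees of freedom was at least 8.33. Figures were drawn with matplotlib 3.10.9.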

Additional observations from a re-analysis of the deposited data

Results flagged for a closer look

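Within each group, the highest and lowest library were compared with the rest in 28 combinations of a share, a summed share or a ratio with a group. In 3 of them 1 library lay far from the others. For normally spread values chance gives about 1 in 20 per combination. The combinations share libraries and features, so they are not independent. Feature df0e3d took 21.7% of reads in colon control 7, where the next control colon library held 9.99%. Colon control 1 stood apart in both ratios to df0e3d, with log2 ratios of 7.75 for f44404 over df0e3d (next 1.79) and 7.35 for e335f7 over df0e3d (next 1.45), since it had no reads of df0e3d.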

How the results depend on the processing

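The count of the 3 features called was 0 in colon, in faeces and for the difference of responses under every alternative run, each library left out in turn included. All-feature counts moved. In colon 8 of 95 became 3 by DESeq2 and 2 by limma. It became 304 of 598 with no prevalence filter and 0 of 40 at a filter of 50% of libraries. Without libraries under 1000 reads 3 of 126 were called, and 0 of 127 in 1 fit over all 4 groups. With 1 library left out it was 2 to 15. In faeces 2 of 135 became 475 of 846 with no filter, 0 of 66 at 50% and 1 of 167 without number 1. With 1 library left out it was 1 to 3. For the difference 0 of 127 became 3 by DESeq2 and 10 of 1073 with no filter. The cause was not tested. With the library number as a replicate block, 0 of 126 features were called for the difference (2 unadjusted), and the log2 differences were 0.90, 1.77 and 1.13 for f44404, e335f7 and df0e3d. Between the deviations of same-numbered libraries, r ran from -0.24 to 0.53 (median 0.10, over 0.1 in 9 of 17 pairs). Of 17 colon libraries, 5 were closest to their own number. No level for unrelated libraries was computed, so these counts do not tell whether a number marks an animal. The correlations of df0e3d in colon lost their call without number 1 (r 0.45 with f44404, 0.29 with e335f7) and on untransformed shares (r 0.56 and 0.26). Mean shares, their folds, the 6 ratio comparisons and the other 13 correlations stayed on the same side of their thresholds or within 1 SD, though values that passed no test changed sign under some alternatives. No faecal library held under 1000 reads, so that limit left the faecal fit as it was. In colon control 8 and shocked 12 and 17, 3 reads are a share of 0.470%, 0.670% and 0.434%.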
